A study of Homo sapiens with 6 samples.

Results

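Genes of the nuclear receptor superfamily were examined on arrays of RH36 cells. The members were 46 genes, chosen by name, and were found on the array as every probe whose gene name is one of them. They had 74 of the 41000 probes and 46 of the 30484 gene names on the array. RH36 is a human cell line of embryonal rhabdomyosarcoma, a tumour of muscle-like cells, that lacks the PAX3/FOXO1 translocation, and it is a single line. Cells were transiently transfected with pre-miR-27a, a precursor of the microRNA miR-27a, on 3 arrays, or with the negative pre-control on 3 arrays. The labels give 10 nM of either molecule and, for the pre-miR-27a arrays, 48 h after transfection. The paper's methods give another concentration and an earlier time for work in these cells, and which applies to the arrays could not be settled. Arrays were labelled as biological replicates 1 to 3 of each group, with no word on how the cultures were started. The array held 0 probes named for miR-27a, so the level of the microRNA was not measured on it.

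Nuclear receptors are transcription factors that bind DNA at short repeated motifs. Many of them change shape when a small lipid-soluble molecule such as retinoic acid, thyroid hormone, a steroid or a fatty acid binds, and then exchange corepressor proteins for coactivator proteins. Retinoic acid receptors, thyroid hormone receptors, PPARs, LXRs and the vitamin D receptor act as pairs with a retinoid X receptor (RXR), so the RXR genes serve many pathways at once. In the muscle lineage, retinoid, thyroid hormone, ROR and REV-ERB receptors are known regulators of differentiation and metabolism.

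The mature strand of the transfected microRNA is shown because its seed, in capitals (bases 2 to 8), is what pairs with messenger RNAs. It lies at chr19:13836447-13836467 on the minus strand of GRCh38.p14. The sequences are from RefSeq, written 5′ to 3′, and miR-27b is shown because it has the same seed.
hsa-miR-27a-3p: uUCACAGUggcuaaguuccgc
hsa-miR-27b-3p: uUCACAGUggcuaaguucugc
No messenger RNA sequence of a receptor was examined for a match to this seed.

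The 3 pre-control arrays shared a slide and the 3 pre-miR-27a arrays shared another, scanned apart, so in every difference below the slide and the transfected molecule cannot be told apart. Between 30332 and 32064 spots were well above background on pre-control arrays and between 32161 and 33823 on pre-miR-27a arrays, where the median background was lower (52.5 to 53 against 74.5 to 76). Muscle markers were present: MYOD1, MYOG, DES, CDH15, CHRNA1, CHRNG and MYF6 were well above background on all 6 arrays, and MYF5 was on none. PTPRC, EPCAM, CDH1, KRT20 and PECAM1, which mark blood, epithelial and endothelial cells, were not well above background on any array. Arrays measure bulk RNA, in which fewer cells with a transcript and less transcript per cell cannot be told apart. Signals are given as log2 of the quantile-normalized intensity and differences as pre-miR-27a minus pre-control on that log2 scale, with the standard error of the limma fit.

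A detectable signal was found for most but not all receptors. A probe well above background on all 6 arrays was found for 28 of the 46 genes. For NR2E3 that probe was not found by the scanner software on 2 arrays and was left out of the tests. The NR2E3 probe that was tested was well above background on 0 arrays. For 9 genes no probe was well above background on any array: the oestrogen receptor ESR2, the progesterone receptor PGR, the liver factors HNF4A and HNF4G, the bile acid receptor NR1H4, the xenobiotic receptor NR1I2, RORB, NR2E1 and NR0B1. The other 9 genes lay between, with signal on some arrays only or a probe that was not found on enough arrays. These were VDR, RXRG, THRB, NR1I3, NR4A2, ESRRB, ESRRG, NR0B2 and NR5A1. By array, 46, 46 and 49 receptor probes were well above background on pre-control replicates 1, 2 and 3, against 53, 53 and 49 on the pre-miR-27a arrays. The part of the lower background on the second slide in this difference was not tested.

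Of the 74 probes, 68 were found on at least 5 arrays and were tested, for 45 genes. The 6 probes left out were 1 each for RORB, HNF4A, HNF4G, PPARD, NR2E3 and NR5A1, and NR5A1, a receptor of steroid-making cells, had no other probe. Benjamini-Hochberg adjusted p-values are from limma over all tested probes of the array, and a probe was called at an adjusted p under 0.05. Among the receptor probes 7 were called, 2 higher and 5 lower in pre-miR-27a cells, which is 10.3% of those tested. Over all probes of the array 7.83% were called, 3.95% higher and 3.88% lower. By the brightest probe of each gene, 3 of 45 receptor genes were called (6.67%), against 7.4% of all genes. The median difference of the receptor probes was 0.0041 and that of all probes −0.0215. Of the 56 receptor probes measured on all arrays, the groups did not overlap for 13 (23.2%), 4 higher and 9 lower, against 32.7% of all such probes.

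**Figure D1:**
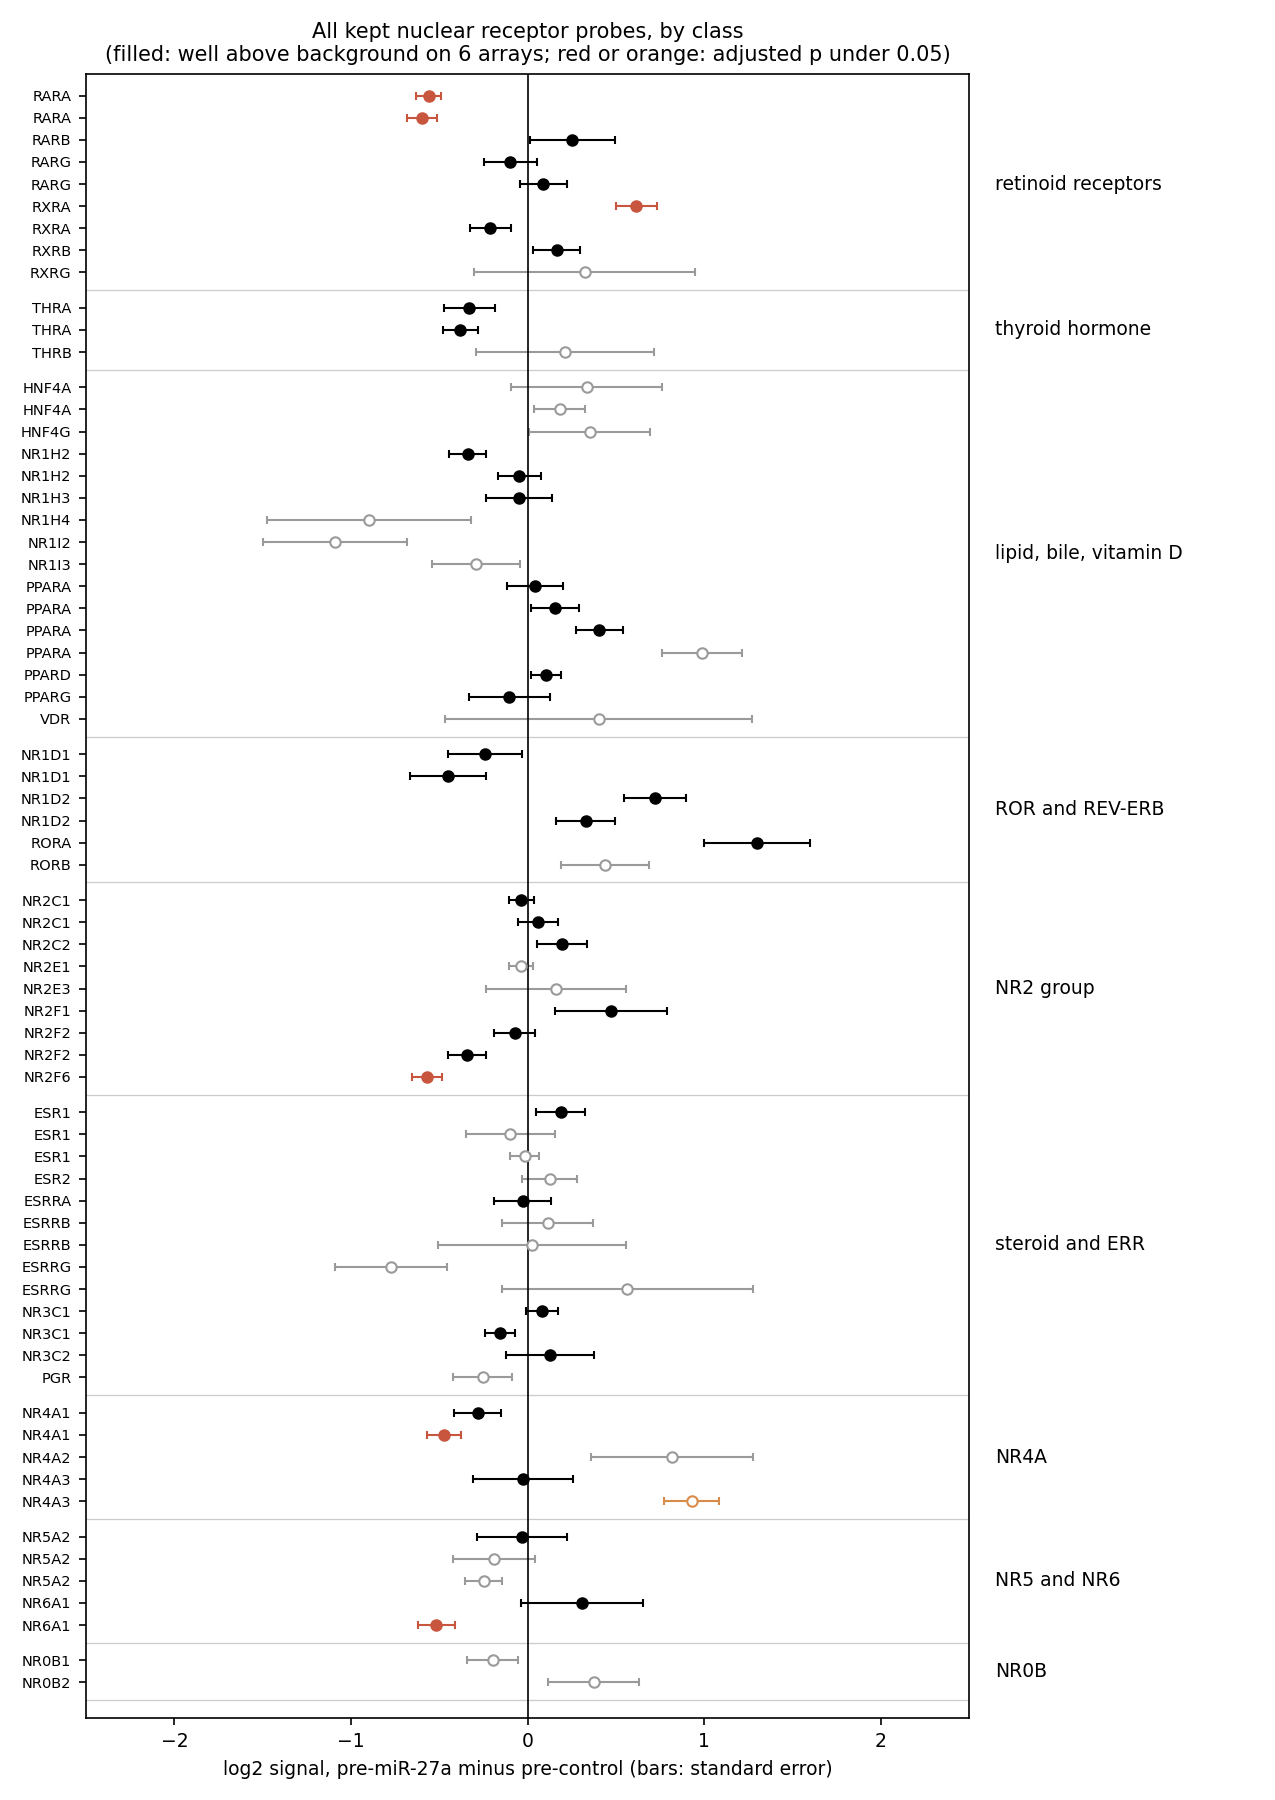
Difference in log2 signal between pre-miR-27a and pre-control cells (horizontal axis, log2 units) for the 68 tested receptor probes, grouped by class and listed within a gene from the brighter to the dimmer probe. Bars are standard errors of the fit, filled points were well above background on 6 arrays, and coloured points had an adjusted p under 0.05. RARA and NR2F6 lie to the left of 0, 1 of 2 RXRA probes lies to the right, and RORA lies farthest to the right.

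By the brightest probe, the retinoid receptors held 2 of the 3 called genes, RARA and RXRA, which moved in opposite directions. With the mean of its tested probes RXRA differed by 0.20 (adjusted p = 0.339 in limma) and was not called. RARA, the alpha receptor for retinoic acid, had 2 probes at chr17:35766454-35766513 and chr17:35766700-35766759 of hg18, plus strand. At the first the log2 signal was 12.78, 12.83 and 12.89 on the pre-control arrays and 12.27, 12.24 and 12.30 on the pre-miR-27a arrays. At the second it was 9.11, 9.30 and 9.19 on the pre-control arrays and 8.55, 8.64 and 8.64 on the pre-miR-27a arrays. Every pre-miR-27a array was below every pre-control array at both probes. RARA fell by 0.56 (SE 0.073), a 1.47-fold difference, at the first probe and by 0.60 (SE 0.085), 1.51-fold, at the second, with adjusted p = 0.0198 and 0.0224 in limma. The changes at the RARA probes differed by 0.04 (SE 0.079), with an adjusted p of 0.789 for the difference.

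RXRA, the alpha form of RXR, the shared partner of these receptors, gave different answers at its 2 probes. At the brighter probe, chr9:136471593-136471652 of hg18 on the plus strand, the log2 signal was 11.66, 11.46 and 11.43 on the pre-control arrays and 12.24, 12.20 and 11.96 on the pre-miR-27a arrays. At the dimmer probe, which starts 3169 bases away at 136468424, it was 9.40, 9.50 and 9.33 against 9.33, 9.27 and 9.01. The groups were apart at the brighter probe and overlapped at the dimmer one. RXRA rose by 0.62 (SE 0.115), 1.53-fold, at the brighter probe (adjusted p = 0.0377) and differed by −0.21 (SE 0.115) at the dimmer one (adjusted p = 0.326). The difference between these 2 changes was itself 0.83 (SE 0.095), with an adjusted p of 0.0084 over all pairs of probes of 1 gene. It was called in each of the 6 fits that left out 1 array (adjusted p 0.0131 to 0.0448). Both probes are named for RXRA in the files, and no transcript model of hg18 was used here to say which part of the gene each lies in.

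The other retinoid receptors did not pass the test. RARB, itself a gene that retinoic acid switches on in many cells, was at 5.26, 5.99 and 5.77 on the pre-control arrays and 5.68, 6.26 and 5.85 on the pre-miR-27a arrays. Its groups overlapped, with a difference of 0.25 (95% interval −0.34 to 0.85). RARG, the gamma receptor, was at 6.91, 6.41 and 6.54 against 6.47, 6.64 and 6.45 at its brighter probe and at 5.60, 5.60 and 5.67 against 5.76, 5.92 and 5.45 at its dimmer one. Its differences were −0.10 (interval −0.47 to 0.27) and 0.09 (−0.24 to 0.42), of opposite sign and with overlap at both probes. RXRB was at 10.73, 10.44 and 10.56 against 10.95, 10.60 and 10.67, a difference of 0.16 (−0.16 to 0.49) with overlapping groups. RXRG was at 4.37, 5.76 and 6.41 against 5.22, 5.63 and 6.67, a difference of 0.32 with an interval of −1.22 to 1.87 that leaves a change of either sign possible.

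**Figure D2:**
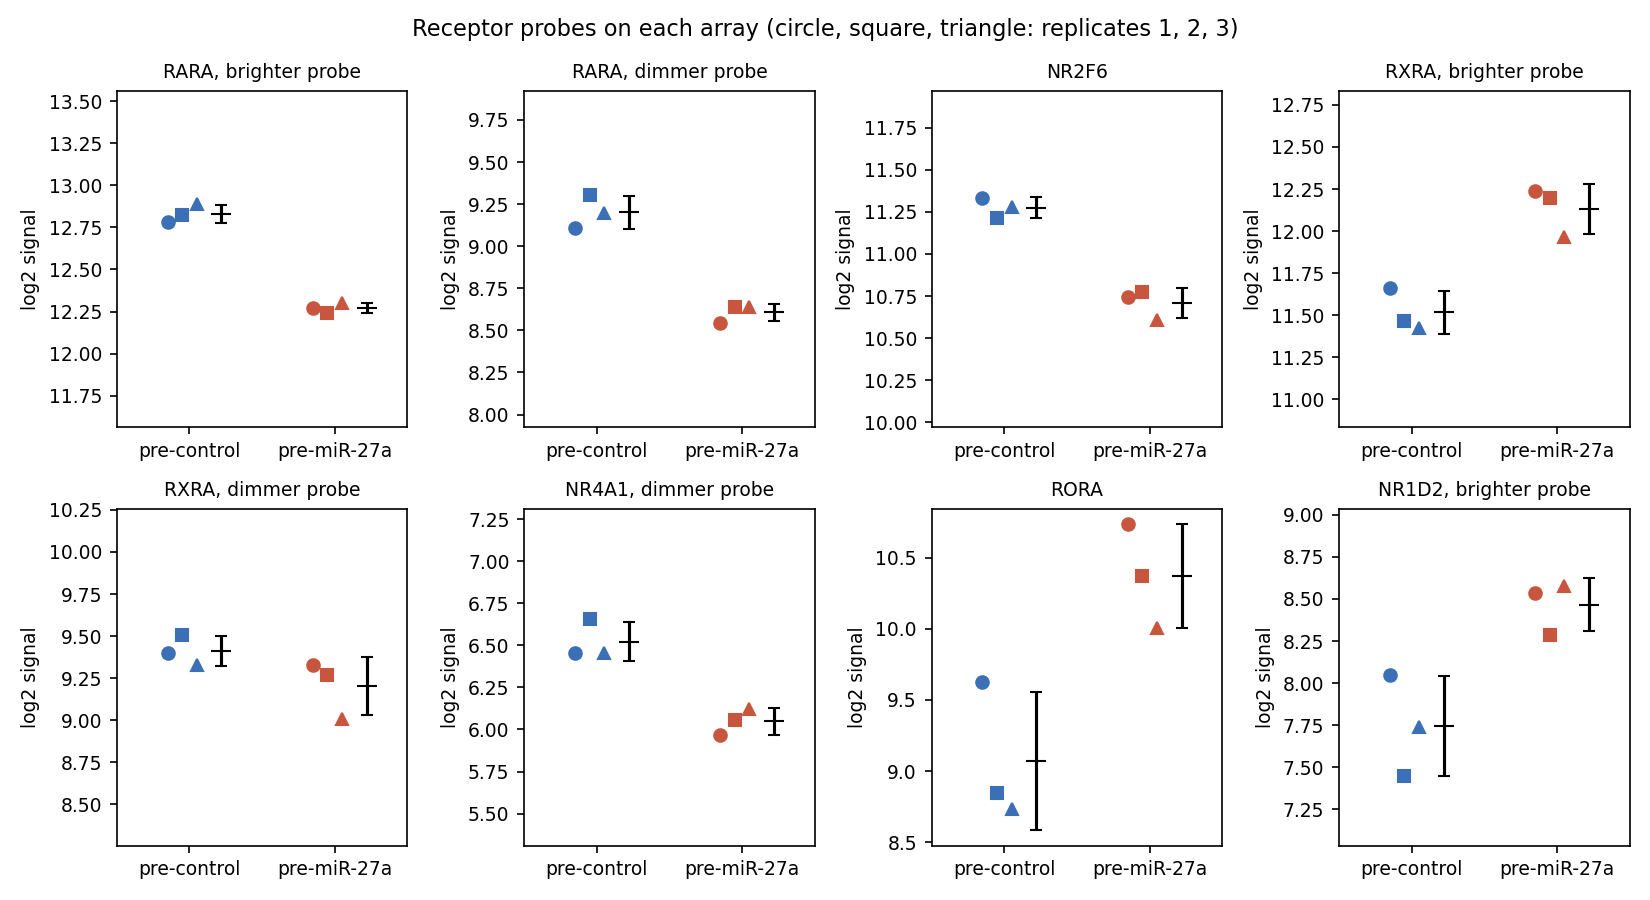
Log2 signal (vertical axes, each spanning 2 log2 units or more) of 8 receptor probes on the 3 pre-control and 3 pre-miR-27a arrays. Symbols mark replicates 1, 2 and 3, and the dash with bars is the mean and SD of 3 arrays. The groups are apart for every probe but the dimmer RXRA probe.

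The thyroid hormone receptor THRA was lower at both of its probes without passing the test. At its brighter probe it was at 13.25, 12.82 and 13.07 on the pre-control arrays and 12.67, 12.60 and 12.89 on the pre-miR-27a arrays, a difference of −0.33 (SE 0.145, adjusted p = 0.235 in limma). At the other it was at 9.24, 9.07 and 9.22 against 8.76, 8.69 and 8.93, a difference of −0.38 (SE 0.099). That probe had an adjusted p of 0.0788, and of 0.0472 in a fit that took the replicate number as a block. The brighter THRA probe starts at chr17:35503534 of hg18 on the plus strand, between the 2 probes of NR1D1 on the minus strand, which start at 35502774 and 35504725. It thus lies within the stretch that the NR1D1 probes span on the other strand, and signal from the overlapping gene was not examined. THRB had signal on 3 of 6 arrays only and a difference of 0.21 with an interval of −1.04 to 1.46.

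Among the receptors for lipids, bile acids, drugs and vitamin D, none of 11 genes was called by its brightest probe, and 2 had an unadjusted p under 0.05. NR1H2, the widely expressed LXR beta that senses oxysterols, was at 10.82, 10.72 and 10.57 on the pre-control arrays and 10.49, 10.31 and 10.29 on the pre-miR-27a arrays at its brighter probe. The groups did not overlap there, and the difference was −0.34 (SE 0.105, adjusted p = 0.120, and 0.0479 with the block). At the dimmer probe, 3564 bases away, it was at 8.88, 8.83 and 8.58 against 8.87, 8.66 and 8.62, a difference of −0.05 (SE 0.122) with overlap. The changes at the 2 probes differed by −0.29 (SE 0.064), with an adjusted p of 0.0361 that was 0.0592 with the block and 0.0597 to 0.121 when 1 array was left out, whichever array it was.

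Its relative NR1H3, or LXR alpha, differed by −0.05 (interval −0.52 to 0.42). PPARA, the fatty acid receptor of oxidative tissues, had 4 probes with differences of 0.04, 0.16, 0.41 and 0.99 from the brightest to the dimmest. At the last the signal was well above background on 1 pre-control array and on all 3 pre-miR-27a arrays, and pre-control replicate 2 had no value. Its adjusted p was 0.0743. Over the 5 arrays with a value at both, the change at the PPARA probe with a difference of 0.16 minus that at the dimmest was −0.95 (SE 0.261), with an adjusted p of 0.0770, and of 0.0478 with the block. PPARD differed by 0.11 (interval −0.11 to 0.32) and PPARG, the adipocyte receptor, by −0.10 (−0.67 to 0.46). NR1H4 and NR1I2 gave −0.90 and −1.09, but neither was well above background on any array, so no fold is given, and with the block NR1H4 had an adjusted p of 0.0475.

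The largest difference among the receptors with signal on every array was that of RORA, a constitutively active receptor of the circadian clock that is described here because of its value. It was at 9.63, 8.85 and 8.74 on the pre-control arrays and 10.73, 10.37 and 10.01 on the pre-miR-27a arrays. Every pre-miR-27a array was above every pre-control array, by 1.30 on average (SE 0.301, 2.46-fold). The adjusted p was 0.0600 in limma without the block and 0.0334 with it, and ranged from 0.0476, without pre-control replicate 1, to 0.165 when 1 array was left out. RORA was also called with 75th percentile scaling (0.0487), normexp (0.0229), the deposited values (0.0448) and the variance trend (0.0451). NR1D2, or REV-ERB beta, a repressor that competes with ROR proteins for the same DNA element, was at 8.05, 7.45 and 7.74 against 8.54, 8.29 and 8.58 at its brighter probe. The groups did not overlap there, with a difference of 0.72 (SE 0.176, adjusted p = 0.0674, 0.0378 with the block and 0.0302 with normexp). At its dimmer probe it was at 7.58, 7.27 and 7.08 against 7.85, 7.49 and 7.58, a difference of 0.33 (adjusted p = 0.293). NR1D1, or REV-ERB alpha, differed by −0.24 and −0.45 at its probes, with adjusted p = 0.541 and 0.286. Differences between NR1D1 and NR1D2 were not tested.

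The NR2 group of orphan receptors held the other called gene. NR2F6, which represses transcription and is related to the COUP factors, was at 11.33, 11.21 and 11.28 on the pre-control arrays and 10.75, 10.77 and 10.61 on the pre-miR-27a arrays. Every pre-miR-27a array was lower, and NR2F6 fell by 0.57 (SE 0.084, 1.48-fold, adjusted p = 0.0239). Its probe lies at chr19:17207352-17207411 of hg18 on the minus strand. NR2F1, or COUP-TF1, was at 10.74, 9.80 and 9.97 against 11.10, 10.40 and 10.43, a difference of 0.47 (SE 0.316, adjusted p = 0.423) with overlapping groups. Within replicate numbers it was higher on 3 of 3 pre-miR-27a arrays, by 0.35, 0.60 and 0.47, and with the block its adjusted p was 0.0418. NR2F2, or COUP-TF2, differed by −0.07 and −0.35 at its probes, the second without overlap and with an adjusted p of 0.119. NR2C1 and NR2C2, the testicular receptors, differed by −0.04 and 0.20 at their brightest probes, and NR2C1 had the narrow interval of −0.21 to 0.14.

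Of 8 steroid hormone and oestrogen-related receptors, 0 were called by the brightest probe in limma, and 0 had an unadjusted p under 0.05. NR3C1, the glucocorticoid receptor, was among the best measured members, with 10 spots of its brighter probe on each array. There it was at 12.44, 12.30 and 12.49 on the pre-control arrays and 12.41, 12.49 and 12.57 on the pre-miR-27a arrays, a difference of 0.08 (interval −0.14 to 0.31). Its dimmer probe was at 10.59, 10.47 and 10.42 against 10.31, 10.41 and 10.29, a difference of −0.16 with an adjusted p of 0.328. ESRRA, which drives genes of mitochondrial metabolism, differed by −0.03 (−0.43 to 0.37), and NR3C2, the mineralocorticoid receptor, by 0.13 (−0.49 to 0.74). ESR1, the alpha oestrogen receptor, had signal at 1 of 3 probes, with a difference of 0.19 (−0.16 to 0.53). At ESRRG the 2 probes gave −0.77 and 0.57 and neither had signal on every array. Over the 5 arrays with a value at both, the change at its brighter probe minus that at the dimmer was −1.52 (SE 0.771), with an adjusted p of 0.247, and of 0.0477 with the block.

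The NR4A receptors are immediate early genes that need no ligand. NR4A1 was at 10.28, 10.40 and 10.08 on the pre-control arrays and 9.95, 10.16 and 9.81 on the pre-miR-27a arrays at its brighter probe. The groups overlapped there, with a difference of −0.28 (SE 0.134, adjusted p = 0.265). At its dimmer probe, chr12:50735930-50735989 of hg18 on the plus strand, it was at 6.45, 6.65 and 6.46 against 5.96, 6.06 and 6.12. Every pre-miR-27a array was lower at this probe, where NR4A1 fell by 0.47 (SE 0.095, adjusted p = 0.0425). The 2 changes differed by 0.19 (SE 0.129), with an adjusted p of 0.355, so the probes were not shown to disagree. The call at the dimmer probe was lost with a variance trend and robust estimation (adjusted p = 0.0683) and without any 1 array (0.0806 to 0.136). NR4A3 was at 7.68, 8.0 and 8.53 against 7.88, 7.78 and 8.47 at its brighter probe, a difference of −0.03 (interval −0.73 to 0.67). Its dimmer probe was called higher (adjusted p = 0.0392, 0.0782 with the block, and 0.0773 to 0.110 without 1 array) but was well above background on no array and had no value on pre-miR-27a replicate 2. It was at 2.11, 2.13 and 2.03 against 2.80 and 3.23, and no fold is given from such signals. NR4A2 had signal on no pre-control array and on 2 of 3 pre-miR-27a arrays, with replicate 1 of these at 6.26 and the others at 4.98 and 4.52.

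NR6A1, the germ cell nuclear factor, gave a change at its dimmer probe only. There it was at 5.23, 5.34 and 5.11 on the pre-control arrays and 4.82, 4.57 and 4.73 on the pre-miR-27a arrays, with no overlap. It fell by 0.52 (SE 0.106, adjusted p = 0.0460, and 0.0607 with the block). The call was also lost with the variance trend (0.116) and without any 1 array (0.0767 to 0.128). With normexp background correction in place of the processed signal the difference was −0.05, with an adjusted p of 0.715. At its brighter probe it was at 6.68, 6.67 and 6.48 against 6.53, 7.71 and 6.51, where pre-miR-27a replicate 2 stood above the other 5 arrays. The difference there was 0.31 (SE 0.343), and the changes at the 2 probes differed by 0.82 (SE 0.397) with an adjusted p of 0.212. NR5A2 differed by −0.03 at its brightest probe (interval −0.67 to 0.60). NR0B2, a receptor that lacks a DNA-binding domain, was well above background on 1 array.

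Over the family, 19 genes had more than 1 tested probe, which gave 28 pairs. In 9 pairs the differences had opposite signs, and 2 pairs (7.14%), those of RXRA and NR1H2, were called as different. Over all pairs of probes of 1 gene on the array 16.1% were called. With the replicate block 3 receptor pairs were called, those of RXRA (adjusted p = 0.0278), ESRRG and PPARA given above, and the NR1H2 pair was not. Over all pairs on the array 1897 of 12399 were called with the block.

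**Figure D3:**
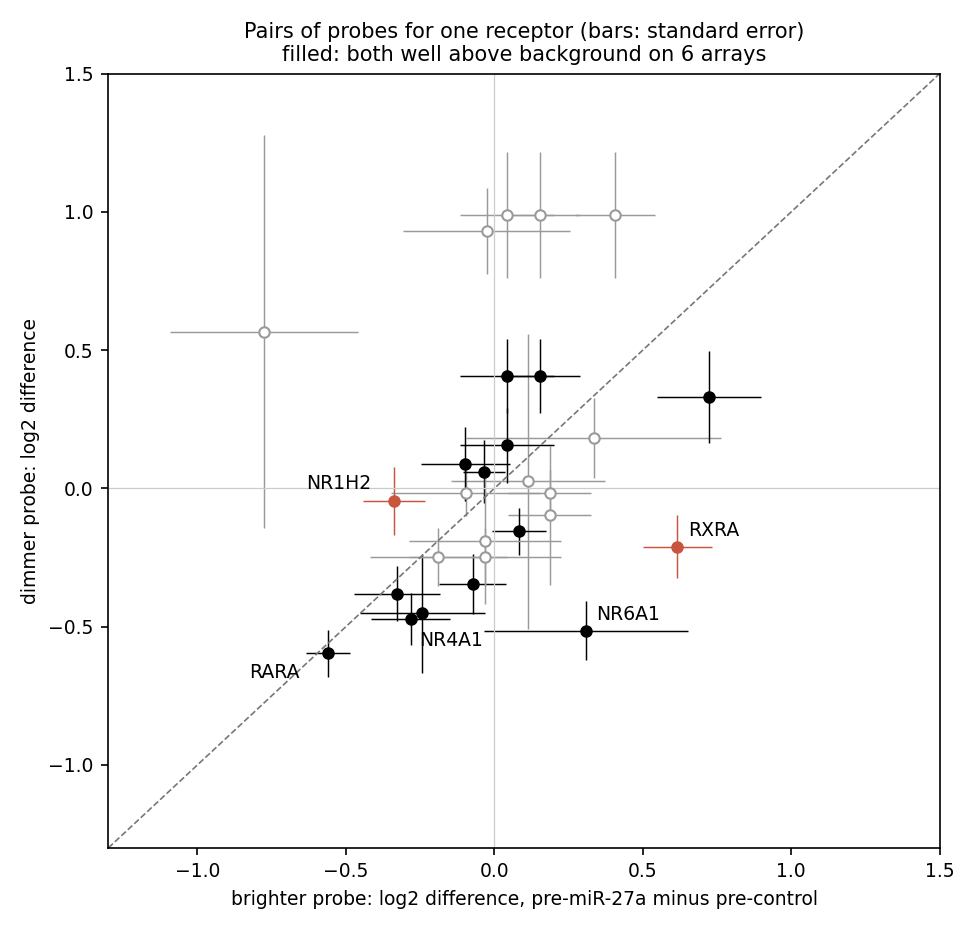
Difference in log2 signal, pre-miR-27a minus pre-control, at the brighter probe (horizontal axis) and the dimmer probe (vertical axis) of the 28 probe pairs, with standard errors as bars and the line of equal change dashed. Red pairs (RXRA and NR1H2) had an adjusted p under 0.05 for the difference between probes, and RARA lies on the line.

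Same-numbered arrays of both groups varied together. At many receptor probes the range over replicate numbers was larger than the difference between groups, and VDR ranged most. VDR, the vitamin D receptor, was at 5.55, 3.94 and 6.72 on pre-control replicates 1, 2 and 3 and at 6.00, 4.60 and 6.81 on the same-numbered pre-miR-27a arrays. Its mean over the same-numbered arrays ranged over 2.49 log2 units, while the difference within a number was 0.45, 0.67 and 0.09, higher in 3 of 3. VDR is printed as 10 spots on each array, and the SD over spots was at most 0.34 on the arrays other than pre-control replicate 2, where it was 0.83 and no spot was well above background. Without the block its difference was 0.40 (SE 0.868, adjusted p = 0.823), and with it the adjusted p was 0.132. RXRG ranged over 1.75 log2 units between numbers. Of the 56 receptor probes measured on all arrays, 6 ranged over more than 1 log2 unit, and none of the 39 that were also well above background on all of them did. The median range was 0.328 over the 56 receptor probes and 0.276 over all 31717 such probes.

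**Figure D4:**
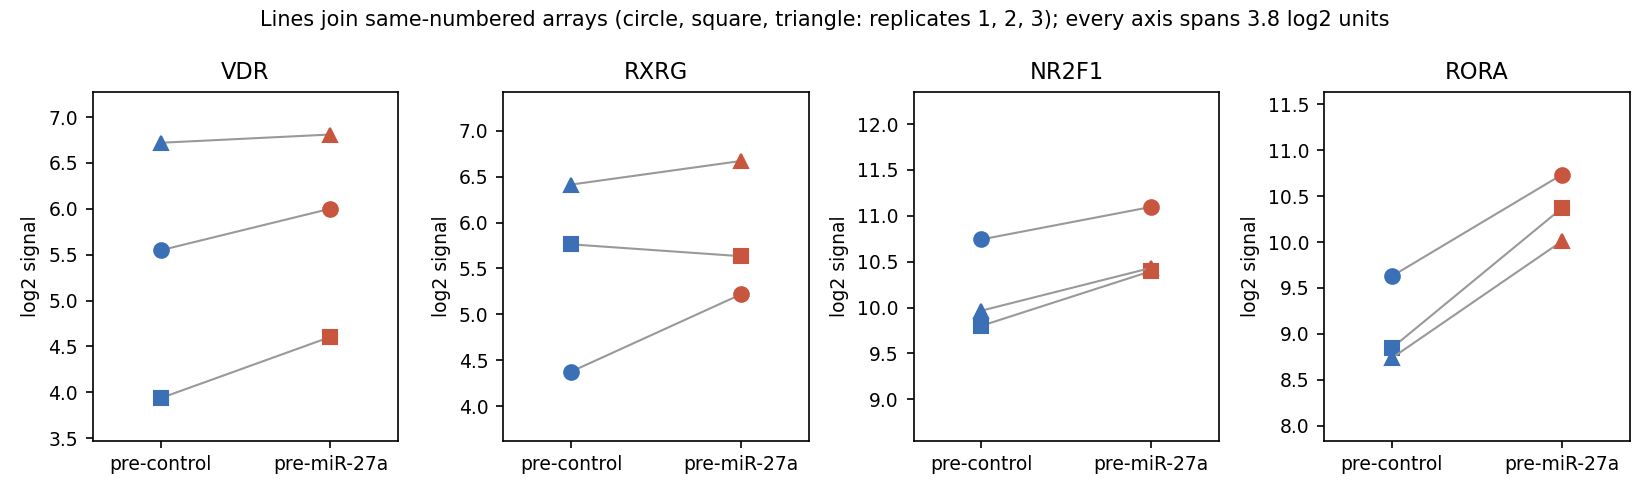
Log2 signal (vertical axes, each spanning 3.8 log2 units) of VDR, RXRG, NR2F1 and RORA in both groups, with a line between arrays of the same replicate number. VDR and RXRG differ more between numbers than between groups, NR2F1 lines run parallel, and RORA is higher on every pre-miR-27a array.

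In the fit with the replicate block, 11 receptor probes were called in limma (16.2%), 4 higher and 7 lower, against 14.9% of all probes. Of these, 5 were also called without the block: both RARA probes, NR2F6, the brighter RXRA probe and the dimmer NR4A1 probe. The 6 added probes were those given above for RORA, NR1D2, NR2F1, NR1H2, NR1H4 and THRA, and the dimmer probes of NR6A1 and NR4A3 were no longer called.

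When 1 array was left out without the block, the differences of RARA stayed between −0.64 and −0.53, that of NR2F6 between −0.60 and −0.52 and that of RXRA at its brighter probe between 0.56 and 0.71. RARA was called without pre-control replicate 1 (adjusted p = 0.0456 and 0.0457 at its probes), and without any other array its adjusted p was 0.0581 to 0.0867. NR2F6 was not called without any 1 array (0.0598 to 0.0844), nor was RXRA (0.0571 to 0.121). An exact permutation test of 3 against 3 arrays cannot give a p under 0.1.

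Coregulators are the proteins that receptors recruit to switch genes on or off. Of 27 listed, 26 were on the array, all were tested, and 19 were higher and 7 lower by the brightest probe, with a median difference of 0.10 against −0.04 over all genes. Over all genes 11929 were higher and 15399 lower. Of the coregulators 2 rose and 1 fell past the test in limma, which is 11.5%, against 7.4% of all genes. NCOA3, a coactivator of the p160 family, was at 10.92, 10.62 and 10.70 on the pre-control arrays and 11.68, 11.63 and 11.46 on the pre-miR-27a arrays. It rose by 0.84 (SE 0.114, adjusted p = 0.0210), and its other 2 probes rose by 0.79 and 0.75. EP300, a histone acetyltransferase used by many receptors, was at 8.20, 8.07 and 8.01 against 8.78, 8.97 and 8.64. It rose by 0.70 (SE 0.114, adjusted p = 0.0276), and by 1.28 at its other probe. PRMT1, an arginine methyltransferase that acts as a coactivator, was at 14.35, 14.41 and 14.43 against 13.95, 14.05 and 14.00, and it fell by 0.40 (SE 0.073, adjusted p = 0.0366). The groups did not overlap for any of these coactivators. NCOA3 stayed called without pre-control replicate 1 (adjusted p = 0.0427), and no other call of the 3 held when 1 array was left out (0.0552 to 0.0968 for EP300 and 0.0706 to 0.121 for PRMT1).

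The corepressor NCOR1 was higher by 0.62 (SE 0.164, adjusted p = 0.0819, and 0.0382 with the block), and 0 of 8 corepressors were called by the brightest probe in limma, 3 having an unadjusted p under 0.05. With the block 7 of 26 coregulators were called, 5 higher and 2 lower, the others being NCOA1, PNRC1, NCOR1 and GPS2. The block called 14.9% of all probes, and its share of all genes by the brightest probe is not given. Some coregulators rose at a probe other than the brightest: TBL1XR1, part of the NCOR complex, by 1.51, NSD1 by 1.19, PPARGC1A by 1.17 and CREBBP by 0.79, where their brightest probes differed by 0.19, −0.04, 0.05 and 0.30. These 4 were picked out for their rise after their values were seen. Their remaining probes differed by 0.34, 0.25 and −0.24 for TBL1XR1, −0.02 for NSD1 and 0.05 for CREBBP. NCOA7 went the other way and fell by 0.55 at a probe other than its brightest, where its brightest differed by 0.003. That NCOA7 probe had an adjusted p of 0.0710 in limma, and of 0.0418 with the block.

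**Figure D5:**
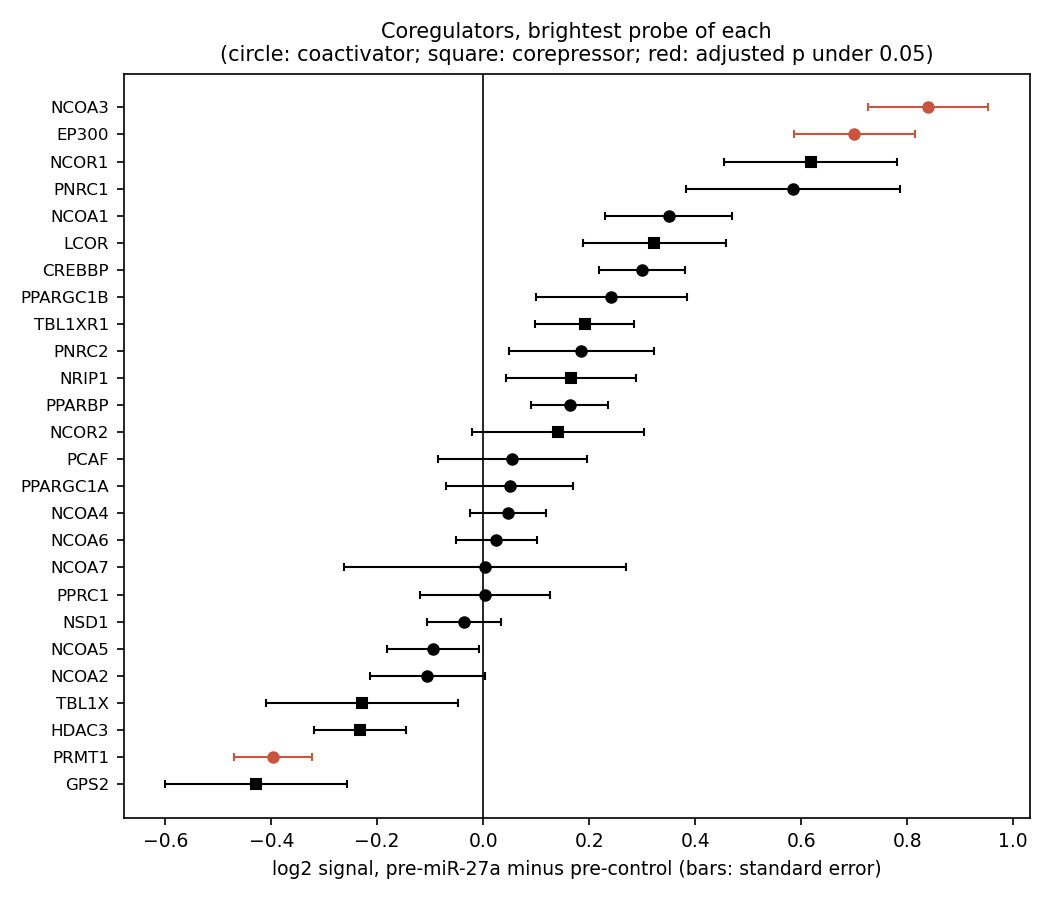
Difference in log2 signal, pre-miR-27a minus pre-control (horizontal axis), at the brightest probe of 26 coregulators under the gene names of the files (PCAF is KAT2B and PPARBP is MED1), with standard errors as bars. Circles are coactivators and squares corepressors, and the red points NCOA3, EP300 and PRMT1 had an adjusted p under 0.05.

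A list of 31 textbook target genes of the receptors was taken as a readout, and 28 of them were tested. Of these, 13 were higher and 15 lower by the brightest probe, with a median difference of −0.01. In limma 0 were called, against 7.4% of all genes, and 4 (14.3%) had an unadjusted p under 0.05, against 23.8% of all genes. With the block, where 14.9% of all probes were called (the share of all genes is not given), 2 targets were called lower. They were the oestrogen receptor target TFF1 (−0.56, adjusted p = 0.0494) and CYP24A1, the vitamin D-degrading enzyme (−1.19, adjusted p = 0.0487). The retinoic acid targets CYP26A1, CYP26B1, DHRS3, STRA6 and TGM2 differed by −0.25, −0.28, −0.37, −0.31 and −0.20 at their brightest probes, with adjusted p from 0.252 to 0.779. BMAL1, which ROR proteins activate and REV-ERB proteins repress, differed by 0.06 (adjusted p = 0.835). Some muscle markers differed beside the receptors. MYOG was lower by 0.95 (adjusted p = 0.140 in limma, and 0.0334 with the block) and MYOD1 by 0.45 (0.0787, and 0.0363 with the block). CDH15 was lower by 0.35 (0.0561, and 0.0457 with the block) and CHRNG by 0.60 (0.145). DES differed by −0.01 and MYF6 by −0.14. CHRNA1 differed by −0.15 at its brighter probe and by 0.95 at its dimmer one. The part of the muscle markers in the receptor differences was not tested.

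The study's own list of predicted miR-27a targets, which it drew with the help of these arrays, holds RARA, PPARA, NR4A1 and the coregulators NCOA1, NCOA3, NCOA5, PPARGC1A and PNRC2. Because it was made on these samples it is not independent evidence of a direction.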

How the data were processed

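RNA of 6 transfections was hybridised in 1 colour (Cy3) to Agilent whole human genome arrays. The authors deposited, per spot, the processed intensity of Feature Extraction, which subtracts a background fitted within the array and is not normalized between arrays, with quality flags. The authors also deposited a table of quantile-normalized log2 values, used as an alternative. All of its sample columns were used (0 left out).

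Here log2 processed intensities of 43376 spots other than controls were quantile normalized, values of spots not found by the scanner software were blanked, spots of 1 probe were averaged, and probes missing on more than 17% of arrays were left out. Groups were compared by limma (version 3.58.1; R 4.3.3; files read by data.table, version 1.17.8), with Benjamini-Hochberg adjustment over all 36469 probes and a threshold of 0.05. For genes with several probes, limma also tested the difference between probes within an array (12399 pairs). limma replaced the paper's SAM, because 3 against 3 arrays allow few relabellings. No spot was saturated (0 spots), and precision rests on the number of arrays. The scripts recovered large planted changes when tested on simulated data with the same spread at every probe. Changes under 1 log2 unit, such as those called for the receptors, were not planted there.

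Gene names and hg18 positions are those of the files. All 46 receptors were in the RefSeq table, by which accessions added 0 probes, and 8 probes under a receptor's synonym belonged to other genes and were left out. The 46 receptors and the lists of coregulators, targets and markers were chosen with earlier results of these data known. Values on every array were given for receptors with a called probe or probe pair, with probes of opposite sign at least 0.5 apart, and for the RAR and RXR genes, and for other receptors where their values called for it after they were seen.

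The labels number the replicates. After each group's mean was subtracted, arrays with the same number correlated at 0.40, 0.46 and 0.41 over 31717 probes. Other pairs correlated at −0.27 to −0.12. The subtraction makes these balance the same-numbered pairs, so the negative values are not separate evidence. Same-numbered arrays thus varied together, and the number was used as a block in an alternative fit. Values given first are from the fit without a block, and blocked values follow where a call changed. The paper's methods name a comparison of 2 classes, while its results name a paired analysis of these arrays. P-values measure only the spread between these arrays. Alternatives were 75th percentile scaling, normexp (offset 50), keeping all dim probes, keeping only probes well above background, outlier spots left out, the block, the deposited values, a variance trend with robust estimation, other rules for several probes, and leaving out each array.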

Additional observations from a re-analysis of the deposited data

How the results depend on the processing

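Counts are of calls in limma at an adjusted p under 0.05. Receptor genes called, 3 by the brightest probe, were 6 with normexp, 5 of 31 tested with the filter on probes well above background and 8 with the replicate block. They were 6 where any probe could call a gene and 2 (0 higher) with the mean of a gene's tested probes. Over all probes of the array, 3539 of 36469 were called with normexp, 3629 of 28794 with that filter and 5421 of 36469 with the block. In the main fit 2856 of 36469 were called. These are counts of probes, and counts over all genes by the brightest probe are not given for the alternatives. Receptor probes called, 7, were 11 with the replicate block and 5 to 9 under the other settings that kept all arrays. Coregulators called, 3, were 7 with the block. Target genes called, 0, were 2 with normexp, 2 with the block, and 1 each, lower, with 75th percentile scaling, the filter on probes well above background, the deposited values and the variance trend. Without 1 array the calls were 0 to 3 for receptor probes (14 to 17 at an unadjusted p under 0.05), 0 to 2 for receptor genes (6 to 8), 1 to 2 for probe pairs, 0 to 1 for coregulators (5 to 8) and 0 for targets (2 to 6). Calls above 0 for receptor probes, receptor genes and coregulators came only without pre-control replicate 1, and over all probes of the array the calls ranged from 0 to 1226, the latter without that array. No single probe's difference that was called reversed under any alternative. Signal over background limits the 9 receptors with no probe well above it.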

Other observations

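The muscle regulator MYF6 varied by replicate number like VDR, an observation made after the values were seen. MYF6 was at 9.57, 7.76 and 10.99 on pre-control replicates 1, 2 and 3 and at 9.47, 7.40 and 11.02 on the same-numbered pre-miR-27a arrays, so in both groups replicate 2 was lowest and replicate 3 highest, as for VDR. Its difference between the groups was −0.14 (SE 1.182, adjusted p = 0.959 in limma). Another muscle gene, CHRNA1, a subunit of the acetylcholine receptor, differed by −0.15 at its brighter probe (adjusted p = 0.456) and rose by 0.95 (adjusted p = 0.0216) at the dimmer one. Of the lists used to check for other cells, the T cell gene CD3E had signal on all 6 arrays and fell by 0.44 at its brighter probe (adjusted p = 0.0348), while the pan-leukocyte gene PTPRC had no signal well above background.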
